A study of Mus musculus with 2 samples.

Results

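The expression array used here carries 16194 probes that are named by a stretch of chromosome instead of a gene. They make up 29.1% of the 55681 probes that are not controls. They were chosen by name alone, as every probe that is not a control and whose systematic name starts with chr in both scanner files. The names give 3543 regions on 20 chromosomes (build mm9, per the file headers), of 62 to 7128487 bases with a median of 7304. A suffix, read here as the forward (F) or reverse (R) strand, is carried by 8171 and 8010 probes, and the other 13 probes, in 3 regions, have none. The regions form 4610 sets of 1 region and 1 strand, each with 1 to 10 probes and a median of 3. Regions probed on both strands number 1067, and 1317 regions overlap one that starts before them. Overlapping regions, and probes of 1 region, can report the same transcript and are not replicates.

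The RNA came from LSK cells, the blood-forming cells that lack lineage markers and carry Sca-1 and c-Kit. Bone marrow LSK cells were sorted from wild-type C57BL/6 mice aged 8 weeks. Fetal liver LSK cells were sorted from wild-type embryos at E14.5, and their strain was not used here. Per the labels, neither group was transplanted, and they do not say whether animals were pooled. Each group had 1 single-colour array, so no value has a replicate check and no test across samples was possible. Tissue, age and slide differ together and cannot be told apart. In such bulk samples fewer cells with a transcript and less of it per cell cannot be told apart either.

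Transcripts from stretches of genome between known genes include the long intergenic noncoding RNAs. These are made by RNA polymerase II, are often spliced and polyadenylated like messenger RNA, and carry the histone marks of active promoters and transcribed bodies. They are known as a class for low abundance and for expression limited to few cell types. Some act on chromatin or on genes next to them, while for most no function is known. Whether each region here lies between genes was not checked, since no gene positions of build mm9 were used.

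Levels are the log2 processed signal minus the log2 of the array's 75th percentile, and differences are fetal liver minus bone marrow on that log2 scale. The value after ± is the error of the image software, which is technical only, with a median of 0.23 over the region probes measured on both arrays. The sorting markers were present on both arrays. Kit had 4074 in bone marrow against 3062 in fetal liver, and Ly6a, which encodes Sca-1, had 3846 and 594. Of the lineage genes reported here (brightest probe of each), Cd8a and Ms4a1 were not well above background on either array, while Cd3e (838 and 898), Cd4 (1211 and 1067) and Itgam (4910 and 3883) were. The hepatocyte genes Alb, Ttr and Apoa1 were not well above background on either array. The part of such other transcripts in the results below was not tested.

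Fewer region probes than gene probes were detected, on both arrays alike. The software marked 4545 of 16190 usable region probes as well above background in bone marrow (28.1%, 95% Wilson interval 27.4 to 28.8) and 4410 in fetal liver (27.2%, 26.6 to 27.9). For RefSeq messenger RNA probes the shares were 62.3% and 61.4%, for RefSeq noncoding RNA probes 37.6% and 36.6%, and for Ensembl transcripts 40.5% and 38.2%. Their intervals, drawn in the plot of detection by class, do not overlap those of the region probes. Both arrays detected 3972 region probes, bone marrow alone 573 and fetal liver alone 438, while 11207 were detected on neither. The detected region probes also lay nearer to background, with median signals of 50.3 (bone marrow) and 41.9 (fetal liver), against 121 and 90.2 for noncoding RNA probes and 368 and 289 for messenger RNA probes. A signal depends on the probe as well as the transcript, so these medians show distance from background and not abundance. All region probes together held 2.94% of the array's signal in bone marrow and 3.26% in fetal liver.

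**Figure D1:**
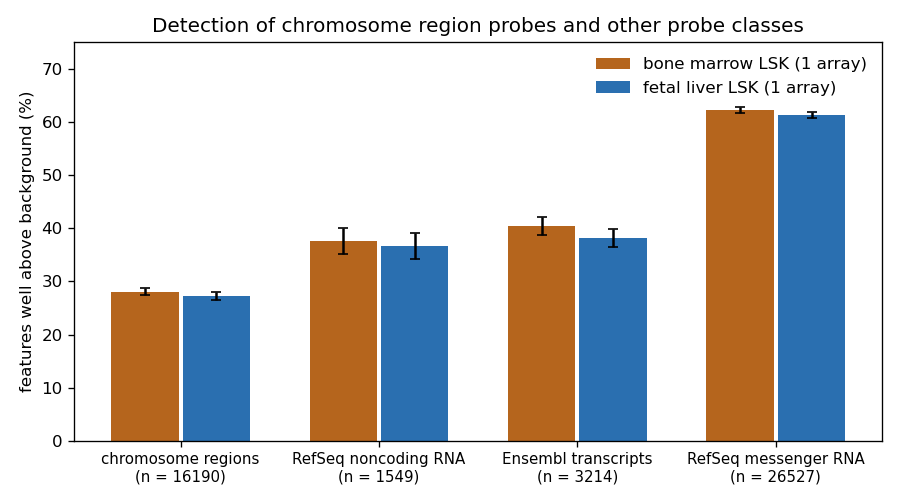
Percentage of probes well above background (vertical axis) for 4 probe classes on the bone marrow and fetal liver arrays; bars show 1 array each and whiskers the 95% Wilson interval, which covers counting error only. The region probes, at 28.1% and 27.2%, lie below each other class on both arrays.

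Detection varied little with the length of the region. With the probes in 5 groups of about equal size by region length, the share detected in bone marrow was 25.6% for regions up to 2341 bases and lay between 28.1% and 29.0% in the longer groups. In fetal liver it was 24.8% in the shortest group and between 27.4% and 28.3% in the others.

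A minority of region probes differed by 2-fold or more. Of the 4983 detected on either array, 263 (5.28%) had the higher level in fetal liver by that margin and 284 (5.70%) in bone marrow. Over all probes tested the shares were 5.96% and 7.12%. A probe detected on only 1 array has a bound in place of a difference. It sets the bright signal against the dim one, or against the lowest detected signal of the dim array if that is higher. Bounds gave 92 and 109 of these calls. Among the 3972 region probes measured on both arrays, 171 (4.31%) passed 2-fold towards fetal liver and 175 (4.41%) towards bone marrow. The corresponding shares of all probes were 5.10% and 5.79%. The region shares therefore lay somewhat under the background in each direction. Differences of at least 4-fold were measured for 15 region probes (0.378%) towards fetal liver and 19 (0.478%) towards bone marrow, against 0.806% and 1.44% of all measured probes.

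The middle of the distribution was shifted slightly towards fetal liver. The median difference of region probes measured on both arrays was 0.18 (quartiles -0.18 and 0.47, SD 0.60), against 0.10 (SD 0.74) for the other probes. Scaling to the spike-in controls moved the median of all measured probes from 0.11 to -0.22 and that of region probes to -0.15. The calls then split into 92 towards fetal liver and 544 towards bone marrow. With normexp background correction and quantile normalization they numbered 35 and 65. Shares over all probes with these settings are not given here. Levels on the 2 arrays followed each other across region probes, with Pearson's r of 0.968 and Spearman's rho of 0.924. These values are across probes, which share the arrays and are not independent.

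The narrower spread was seen at each level. In 5 ranges of mean level, each holding a like number of region probes, the SD of the difference was 0.51, 0.64, 0.68, 0.67 and 0.48 from dimmest to brightest. For the other probes in the same ranges of level it was 0.53, 0.79, 0.87, 0.86 and 0.68, larger in each.

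**Figure D2:**
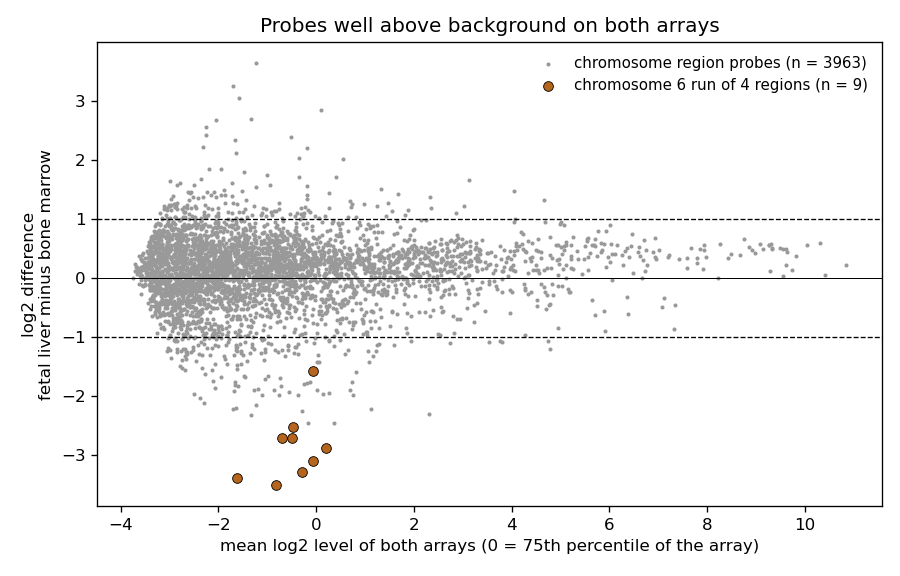
Log2 difference, fetal liver minus bone marrow (vertical axis), against the mean log2 level of both arrays (horizontal axis), for the 3972 region probes measured on both arrays; dashed lines mark 2-fold. The 9 measured probes of 4 neighbouring chromosome 6 regions, marked in brown, all lie below -1.5, and most points lie between the dashed lines.

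The largest differences towards bone marrow came from 1 stretch of chromosome 6. There, 4 regions with gaps of at most 50 kb between neighbours covered 209 kb, from 31078802 to 31287353, and had medians of -2.71 to -3.40. Of their 13 probes, 9 were measured on both arrays and all 9 passed 2-fold towards bone marrow, 2 more were bounds in the same direction, and 2 were dim on both. Genes in this stretch were not looked up here. The same 4 regions supplied 8 of the 10 largest measured differences towards bone marrow.

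The region chr6:31233512-31241062 had the largest difference towards bone marrow among probes measured on both arrays. On its forward strand 1 probe had 342 in bone marrow against 22.5 in fetal liver (-3.51 ± 0.26), and the other had 458 against 35.1 (-3.29 ± 0.23). Its reverse strand was dim on both arrays, with signals of 2.55 and 4.72 in bone marrow and 2.10 and 2.45 in fetal liver. High bone marrow signal was thus limited to the forward strand here.

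The forward strand of the enclosing region chr6:31170350-31287353 gave signals of 558 against 56.9 (-2.88 ± 0.21) and 310 against 40.1 (-2.53 ± 0.22). The remaining probe had 167 in bone marrow and 11.1 in fetal liver, where it was not well above background. Its bound, set against that dim signal itself, was 11.3-fold towards bone marrow (-3.50 ± 0.39). On the reverse strand, chr6:31115515-31168433 gave 281 against 32.0 (-2.72 ± 0.23) and 326 against 37.3 (-2.71 ± 0.22), and a bound from 116 against 11.2. In all of these probes the bone marrow signal was the higher, by several times the technical error.

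The outermost region, chr6:31078802-31079644 on the reverse strand, was less even. Its probes had signals of 504 against 43.9 (-3.11 ± 0.21), 190 against 13.5 (-3.40 ± 0.34) and 295 against 73.6 (-1.58 ± 0.21). The third probe differed from the others by more than the technical error of either.

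Besides that stretch, several regions were higher in bone marrow by every measured probe. Among the 485 region strands with at least 3 probes measured on both arrays, all measured probes passed 2-fold towards bone marrow in 14 (2.89%) and towards fetal liver in 12 (2.47%). These 26 were singled out after their values were seen. The like shares among gene accessions are not given here, so no background stands beside these counts. With spike-in scaling 25 region strands met the rule towards bone marrow and 4 towards fetal liver, and with normexp 5 and 3.

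The forward strand of chr17:84397891-84412748 was the brightest of the strongly different ones. Its 3 probes had bone marrow signals of 1975, 834 and 536 and fetal liver signals of 298, 134 and 73.4, for differences of -2.31, -2.22 and -2.45, each with an error of 0.20 to 0.21. The 3 probes thus differed from each other by about as much as their error, while their signals spanned a wide range.

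On chromosome 16, the forward strands of chr16:43623581-43642715 and of 2 shorter regions that overlap it were higher in bone marrow together. The short region chr16:43623175-43624069 gave 281 against 60.7 (-1.79), 421 against 81.6 (-1.95) and 142 against 28.7 (-1.89). The long region has 10 forward probes, of which 4 were measured on both arrays (-1.31 to -2.20). A further 3 were detected in bone marrow only and 3 on neither. Of its 10 reverse probes 9 were dim on both arrays and 1, at 15.5 in bone marrow, was just above background. The third region, chr16:43635730-43639104, gave -1.43 by 1 probe and bounds of -1.34 and -1.45 by the others.

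A second chromosome 16 stretch, chr16:84702353-84710928 with 2 shorter regions inside it, differed in that both strands were higher in bone marrow. Its forward probes were at -0.93, -1.25 and -1.81 and its reverse probes at -0.99, -1.02 and -1.06. Signals in bone marrow ran from 106 to 323 and in fetal liver from 22.5 to 122. It was the only region in which the medians of both strands were at least 2-fold in the same direction.

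In some other regions higher in bone marrow the probes lay close together. The reverse strand of chr13:108653722-108654406 gave 547 against 121, 300 against 66.6 and 290 against 63.5, with differences of -1.76, -1.75 and -1.78. On the reverse strand of chr19:5798135-5800557 the signals were high, at 3605, 3523 and 1752 in bone marrow and 1280, 1265 and 611 in fetal liver, with differences from -1.06 to -1.10. The neighbouring chr19:5795690-5797464, on the forward strand, was uneven, with probes at -1.30, -1.02 and -0.004. The last of these was the brightest of its set, at 466 and 348.

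Further sets with all probes past 2-fold were chr13:28551902-28975446 on the reverse strand (median -1.66), chr9:96632664-96653249 on the reverse strand (-1.47), chr2:128137419-128141735 on the reverse strand (-1.46), chr9:118059348-118079494 on the forward strand (-1.22) and chr1:186560855-186563399 on the forward strand (-1.05). The remaining 3 lay on chromosome 18, with medians of -1.95, -1.91 and -1.10. On chr11:53592946-53637922 and the overlapping chr11:53596919-53672731 the region medians were -1.90 and -1.82, but not all probes shared this. The first median pools both strands, with the measured forward probe at 0.12 and a reverse probe at -0.20. In the second region a probe lay at -0.68. The chromosome 4 region chr4:114585803-114588898 owed its place among the 10 largest to 1 forward probe, at 372 against 50.7 (-2.46 ± 0.21), while its other 2 probes had signals of at most 5.19.

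**Figure D3:**
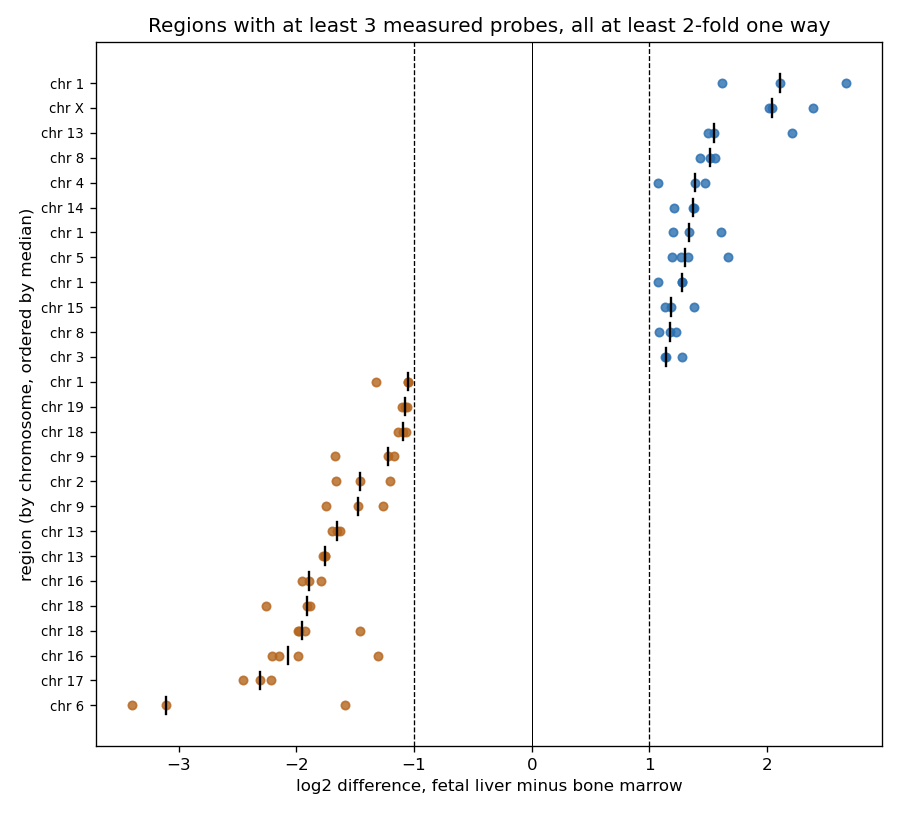
Log2 difference, fetal liver minus bone marrow (horizontal axis), of each measured probe (points) in the 26 region strands whose 3 or more measured probes were all at least 2-fold different in 1 direction; rows are region strands named by chromosome, ticks are medians, brown is higher in bone marrow and blue higher in fetal liver. The 14 bone marrow sets reach a median of -3.11 and the 12 fetal liver sets 2.11.

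The largest measured differences in both directions rested on a dim signal on the lower array. In the 10 largest towards fetal liver the bone marrow signals ran from 15.4 to 71.5. In the 10 largest towards bone marrow the fetal liver signals ran from 13.5 to 73.4. The largest towards fetal liver was on the reverse strand of chr12:82457625-82476325, where 1 probe read 203 in fetal liver against 21.7 in bone marrow (3.64 ± 0.28). Its other 2 probes had 51.3 and 49.4 in fetal liver and were not well above background in bone marrow, with bounds of 2.46 and 2.41. All 3 probes of the set thus had the higher signal in fetal liver.

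On the X chromosome, both forward probes of chrX:98989930-98994344 were higher in fetal liver, at 385 against 71.5 (2.84 ± 0.21) and 134 against 27.7 (2.69 ± 0.26). The 3 forward probes of chrX:47890565-47915775 had 214, 213 and 397 in fetal liver and 54.5, 69.1 and 131 in bone marrow, for differences of 2.39, 2.04 and 2.02. All probes of both sets were higher in fetal liver.

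The reverse strand of chr1:69531191-69570566 gave 82.1 against 17.2 (2.67 ± 0.30), 89.9 against 27.7 (2.11 ± 0.25) and 70.6 against 30.8 (1.62 ± 0.24). A further probe there was detected in fetal liver only, at 32.4, and the last was dim on both arrays. Both reverse probes of chr4:21683562-21694350 were higher in fetal liver, at 2.34 ± 0.27 and 2.21. The reverse strand of chr4:88583425-88584070 gave 2.56 ± 0.31, 1.69 and a bound of 2.24, from signals of at most 68.1. On the forward strand of chr12:110894095-110899517, 1 probe was at 65.4 against 16.2 (2.43 ± 0.32) and the other at 36.3 in fetal liver with no detection in bone marrow.

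The brightest set that was higher in fetal liver was the reverse strand of chr5:35975265-35982561. Its 4 probes had signals of 5376, 2084, 579 and 243 in fetal liver and 2853, 875, 321 and 142 in bone marrow, with differences of 1.33, 1.67, 1.27 and 1.19. The 4 probes of its forward strand, with bone marrow signals of 1264 to 4066, lay between -0.17 and -0.43, each with an error of 0.20. Only the reverse strand of this region was thus at least 2-fold different. The reverse strand of chr15:36800254-36809571 had a median of 1.18, with signals up to 1090 in fetal liver. A pair of neighbouring chromosome 8 regions on the reverse strand, chr8:82836971-82849309 and chr8:82854412-82919089, had medians of 1.52 and 1.18 over 3 probes each. The other fetal liver sets, at chr13:62734450-62785325 (reverse), chr4:40202350-40205120 (reverse), chr14:21461716-21462270 (forward), chr1:59775022-59780348 (forward), chr1:139822286-139822985 (forward) and chr3:10081893-10094218 (forward), had medians of 1.55, 1.39, 1.37, 1.33, 1.27 and 1.14.

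Some of the largest single differences were not shared, or only partly shared, by other probes of their region. The reverse probe of chr17:22420025-22457650 at 130 against 20.8 (3.06 ± 0.27) stood beside 3 measured probes at 0.32 to 0.498. In chr8:94841965-94881130 the reverse strand held 1 probe at 127 against 17.7 (3.27 ± 0.30), 1 bound of 2.33 and 1 measured probe at 0.28. The single reverse probe of the region chr8:94849929-94870274 inside it was also higher in fetal liver, by at least 7.87-fold, at 72.9 against 7.20.

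The brightest bounds were mostly not shared by the other probes of their set. A reverse probe of chr9:24617562-24625262 had 347 in fetal liver and 2.55 in bone marrow, at least 37.4-fold higher, while its 2 neighbours in the set differed by 0.43 and 0.59. A forward probe of chr6:67052066-67119366 gave 217 against 2.95 and was thus higher there by at least 23.5-fold, beside 1 measured probe at -0.30. Of the other bounds towards fetal liver, chr14:65874977-65880202 (forward, at least 6.81-fold) had no measured neighbour, and chr15:8463685-8494960 (reverse, at least 5.83-fold) had 2, both at 1.71 to 1.72.

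Towards bone marrow, a forward probe of chr10:66559716-66647841 had 296 against 2.71 in fetal liver, at least 22.6-fold higher, and a reverse probe of chr1:64686823-64728598 had 211 against 2.48, at least 16.1-fold. Their measured neighbours lay at 0.50 for the former and between 0.09 and 0.77 for the latter. Forward probes of chr12:110003268-110030953 (at least 12.3-fold) and chr2:136327645-136341251 (at least 10.6-fold) and a reverse probe of chr4:146889650-146904300 (bound -3.59) had no measured neighbour of the same direction. Of the 12 bounds named by the rule, 8 had other measured probes in their set, and in 3 of these the median of the others was at least 2-fold in the same direction. These 3 were on chromosomes 6, 12 and 15.

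The 6 brightest region probes differed by at most 0.60, and the sign of 3 of them changed with spike-in scaling. A reverse probe of chr11:22681800-22707775 had 305591 in bone marrow against 266459 in fetal liver (0.22 ± 0.20), and one of chr7:108209996-108216032 had 239159 and 184985 (0.05 ± 0.20). Each is the only probe of its set. The 3 forward probes of chr17:39982023-39983277 were all bright, from 61449 to 185683 in bone marrow, and differed by 0.55 to 0.67. The 3 reverse probes of chr17:17481706-17482457 ran from 53572 to 145085 in bone marrow and differed by 0.01 to 0.14. In contrast, the bright forward probe of chr3:87757295-87774970 (154599 and 170554, 0.56) stood beside 4 probes with signals of at most 198. That of chr14:78924115-78938125 (142029 and 138142, 0.38) stood beside 6 probes with signals of at most 28.2. In sets like the last 2, a bright signal was carried by 1 probe alone. Whether such probes also bind other transcripts was not tested.

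Agreement among probes of the same set was partial. Of 1809 sets with 3 usable probes, 1028 had none measured on both arrays, 444 had 1, 163 had 2 and 174 had all 3. In the 485 sets with 3 or more measured probes, the median SD of the difference within a set was 0.25, against 0.60 across all measured region probes and 0.21 within 374 gene accessions with as many measured probes. All measured probes of a set had the same sign in 264 of the 485 (54.4%). In 71 sets some but not all measured probes were at least 2-fold different, and only 1 region strand, the reverse strand of chr12:72103832-72116875, held measured probes at least 2-fold different in both directions. Its probes at 1.03, 1.26 and -1.03 had signals of at most 39.3. It was named after its values were seen. Of 346 measured probes at least 2-fold different, 278 had another measured probe in their set, and the median of the others had the same sign for 260 and was at least 2-fold for 152. Of 201 bounds, 111 had such a neighbour, with the same sign for 87 and at least 2-fold for 34.

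How often a region had 1 detected strand depended on the rule for detection. A strand was counted as detected when no fewer of its probes were well above background, on either array, than were not. Of 1066 regions with usable probes on both strands, 356 (33.4%) had 1 detected strand, 133 had both and 577 neither, with 161 on the forward and 195 on the reverse strand alone. When 1 probe was enough, a rule chosen after seeing the data, 473 had both strands, 440 (41.3%) had 1 and 153 neither, so that both strands became the commoner outcome. By the first rule applied to each array, 339 regions had 1 detected strand in bone marrow and 313 in fetal liver. In the 263 regions with 1 strand on both arrays it was the same strand each time. With both strands measured, in 358 regions, the medians of the strands had Pearson's r of 0.13 and Spearman's rho of 0.09, and the same sign in 64.5%. Neighbouring regions within 50 kb had the same sign in 63.9% of 649 pairs, and those beyond 1 Mb in 57.6% of 590. Within 1 strand, the first 2 probes of 948 sets, by probe name, had r of 0.65 and rho of 0.51, with the same sign in 71.2%. At least 1 strand was 2-fold different in 28 regions, 1 strand alone in 27 of them, and none had its strands at least 2-fold different in opposite directions. These are values across regions, which share the same 2 arrays.

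Neighbouring regions shared differences over short distances. Between regions that overlap or touch, r of the region medians was 0.35 (rho 0.29, 420 pairs), and for gaps of up to 10 kb it was 0.53 (rho 0.35). For gaps of 10 to 50 kb it was 0.21 (rho 0.04, 122 pairs), for 50 to 200 kb 0.16 (rho 0.10, 172 pairs), for 200 kb to 1 Mb -0.01 (390 pairs) and beyond 1 Mb 0.0004 (590 pairs). Without the chromosome 6 stretch, r was 0.33 for overlapping regions, 0.43 up to 10 kb and 0.03 for 10 to 50 kb, so that the last rests on that stretch. The share of probe pairs with the same sign was 61.1% of 3447 pairs within 50 kb and 52.1% of 2609 pairs beyond 1 Mb. Within 50 kb, pairs on the same strand had r of 0.395 (66.7% of 508 pairs with the same sign) and pairs on opposite strands 0.10 (53.9% of 412).

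**Figure D4:**
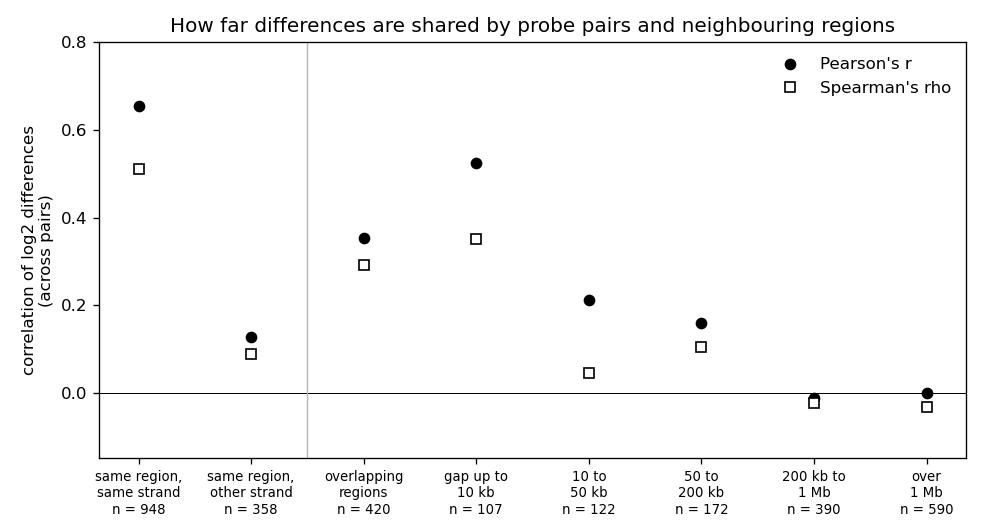
Pearson's r (filled circles) and Spearman's rho (open squares) of log2 differences across pairs (vertical axis), for 2 probes of a region and strand, for the strands of a region, and for neighbouring regions by the gap between them; n is the number of pairs. Pearson's r is 0.65 within a strand, 0.13 between the strands of a region, 0.53 for gaps up to 10 kb and -0.01 for 200 kb to 1 Mb.

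Regions whose medians were at least 2-fold different formed 13 runs of 2 or more neighbours with gaps of at most 50 kb and 1 direction, 9 of them towards bone marrow and 4 towards fetal liver. All 18 pairs of neighbouring regions within 50 kb that were both at least 2-fold different went the same way. The runs towards fetal liver lay on chromosomes 1, 2, 8 and 13. The chromosome 2 run held chr2:174943325-174966675 and chr2:174945941-174946507, with medians of 1.12 and 1.18. On chromosome 13, chr13:62703974-62725544 at 1.80 adjoined the set at chr13:62734450-62785325, and on chromosome 1, chr1:59773381-59775888 at 1.12 overlapped chr1:59775022-59780348. Runs towards bone marrow lay on chromosomes 6, 10, 11, 14 and 19, with 2 each on 16 and 18. Since most runs consist of overlapping regions, their members can report 1 transcript.

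Calls were spread over the chromosomes, with a few exceptions. The 171 measured probes higher in fetal liver came from 119 regions on 19 chromosomes, and 83 of these regions gave 1 probe each. The 175 higher in bone marrow came from all 20 chromosomes, and 68 regions gave 1 probe each. By chromosome the share higher in fetal liver ran from 0% to 7.00% (median 4.41%) and the share higher in bone marrow from 0.778% to 16.7% (median 3.62%). Chromosome 16 had 0 probes higher in fetal liver and 21 of 141 (14.9%) higher in bone marrow, of which 15 belong to its 2 runs. It was also the only chromosome with a median difference below 0 (-0.01), the others lying between 0.10 and 0.30. Spike-in scaling moved the median of all measured region probes from 0.18 to -0.15, so the sign of these medians depends on the scaling. Chromosome 18 had 18 of 108 (16.7%) higher in bone marrow, 14 of them in its 2 runs. Chromosome 8 went the other way, with 18 of 257 (7.00%) higher in fetal liver and only 2 in bone marrow. The X chromosome had 6 of 137 higher in fetal liver, in 3 regions, and 2 higher in bone marrow. The 18 fetal liver calls of chromosome 8 came from 12 regions, with 6 of the calls in its run, while the 17 bone marrow calls of chromosome 13 came from 8 regions and no run. Runs thus held most of the bone marrow calls on chromosomes 16 and 18 but not most calls named for chromosomes 8 and 13.

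**Figure D5:**
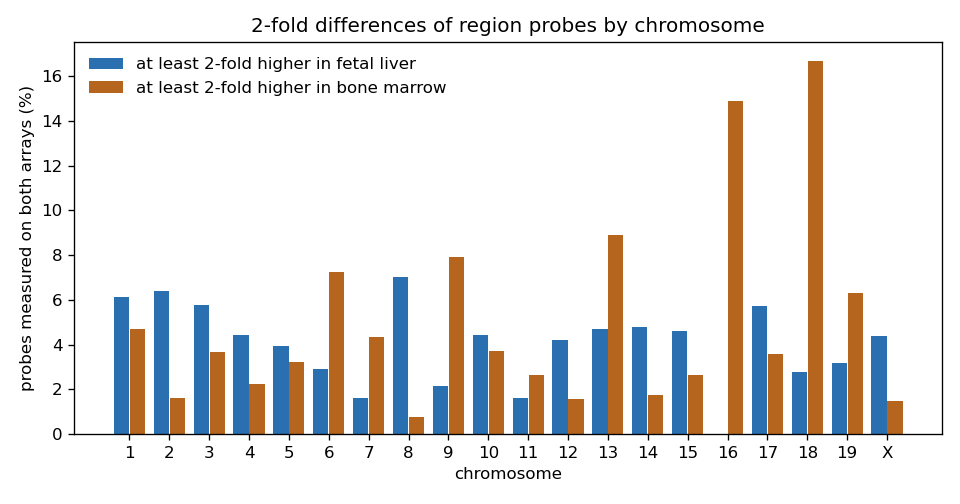
Percentage of region probes measured on both arrays (vertical axis) past 2-fold towards fetal liver (blue) or bone marrow (brown), for each chromosome (horizontal axis). Chromosomes 16 and 18 have the tallest bone marrow bars, at 14.9% and 16.7%, and chromosome 16 has no fetal liver bar.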

How the data were processed

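Each group had 1 Agilent single-colour array of LSK cell RNA. The deposited intensity used is the processed signal of Feature Extraction 10.7.1.1, per the file headers, with background subtracted on each array; the deposited quality flags were used with it. The authors' deposited value table holds a linear ratio of this signal to 1 constant per array (178.6 and 133.9), within 0.1% for 99.99% of probes printed once. The choice of constants is not stated there.

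Outlier spots were left out, which removed 4 region probes, and no spot was saturated. Signals were scaled to each array's 75th percentile over 55664 probes, 178.9 in bone marrow and 134.0 in fetal liver. The lowest signals well above background, used for bounds, were 12.4 and 9.82. A probe printed several times counted as well above background when no fewer of its spots were than were not. The number of arrays limits the precision. Without replicate arrays no test was run, and probes were counted by size (2-fold).

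Probes named were the 10 largest measured differences and 6 brightest bounds in each direction, the 6 brightest probes, the 10 longest runs of neighbouring regions, and regions whose strands differ 2-fold in opposite directions, of which there were 0. Members and lists were chosen with earlier results of these data known. Gaps between regions run from the end of the earlier region to the start of the later. Gene symbols came from the reference table (GRCm38.p6) through accessions, and none of its coordinates was used. Positions of gene probes and probe sequences were not used here, so genes next to a region are not named. Alternatives covered scaling, background correction (normexp, limma 3.58.1, offset 50), filters, detection rules and gap sizes. The calculations (Python 3.11.15, pandas 2.3.3, scipy 1.17.1) were tested on simulated data. Some marker genes are not reported here.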

Additional observations from a re-analysis of the deposited data

How the results depend on the processing

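The counts of region probes past 2-fold, 263 towards fetal liver and 284 towards bone marrow, became 92 and 544 with spike-in scaling, 35 and 65 with normexp, 1361 and 956 without the filter on dim probes, and 171 and 175 with only probes measured on both arrays. Quantile normalization, the 75th percentile of region probes alone, outlier spots kept and the authors' deposited table left both counts within 1.5 times, and so did leaving out the chromosome 6 stretch for bone marrow (273). Shares over all probes are given with the main scaling only. The median difference, 0.16, was -0.17 with spike-in scaling and between 0.06 and 0.18 otherwise. Detection by the positive and significant flag gave 52.6% in bone marrow and 53.9% in fetal liver, and by the 99th percentile of negative controls 35.3% and 41.2%. The share of neighbouring probe pairs with the same sign, 61.1%, was 95.4% where both differences were at least 2-fold and 63.9% with 1 value per region. The share of regions with 1 detected strand, 33.4%, was 28.0% with detection on both arrays and 41.3% when 1 probe was enough. The last 2 rules named, 1 value per region and 1 probe, and the count without chromosome 6 were chosen after seeing the data. Among the probes named by the rule, 3 of the 6 brightest, all under 2-fold, changed sign. With spike-in scaling those on chromosomes 11, 7 and 17 (reverse strand) went to -0.12, -0.29 and -0.20, and the one on chromosome 7 also to -0.13 with quantile normalization, -0.09 with normexp and -0.02 with the percentile of region probes. Normexp shrank the large differences, for example to -1.84 for the largest chromosome 6 difference (-3.51) and to 1.63 for the largest on chromosome 12 (3.64). Its offset of 50 is added to each signal before the log, which by itself makes log differences of dim signals smaller. How much of the change the offset gave was not tested. Spike-in scaling rests on 8 of 10 controls (SD 0.19). Most region probes lie near background, where the technical error is largest. No paired analysis was possible because each group has 1 array.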

Other observations

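The array also carries 57 probes of the same series of designs for 12 transcripts that the files name directly. These are not region probes and entered the comparisons above only among the other probes. H19, the imprinted noncoding RNA of fetal tissues, was the most different. All 5 of its probes were well above background in fetal liver, with signals from 695 to 5144, and 2 of 5 in bone marrow, where the highest was 32.1. By those 2 it differed by 7.19 and 8.35, and by the other 3 it was higher in fetal liver by bounds of at least 6.23. NEAT1, the RNA scaffold of paraspeckles, was higher in bone marrow by all 5 probes, at -2.18 to -2.80, with signals of 235 to 586 against 38.7 to 63.2. XIST, the RNA of X inactivation, was at -0.60 to -1.01 by its 5 probes. TUG1 differed by at most 0.10 and NEAT2, another name of Malat1, by 0.05 to 0.38 over 3 probes. No probe of PINC, TSIX or lincP21 was well above background on either array. HOTAIR, NRON, BRN1-A and KCNQ1ot1 each had 1 or 2 probes measured on both arrays, at -0.13 to 0.55.

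Of 18 noncoding genes listed for comparison, 12 were on the array by RefSeq accession. Neat1 (-2.64), Xist (-2.03), Pvt1 (-1.27) and Snhg12 (-1.09) passed 2-fold towards bone marrow by their brightest probe. Malat1 (0.18), Tug1 (-0.22), Snhg1 (-0.11), Dleu2 (-0.67), Mir17hg (0.68) and Mirg (0.06) were under 2-fold. Meg3 was detected in fetal liver only, at a signal of 17.3, and Fendrr on neither array. The other probe of Pvt1 lay at -0.11 and that of Xist at -1.07.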
